A study of Mus musculus with 6 samples.

Results

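The genes described here are those of haemoglobin and the red cell in bulk RNA sequencing of mouse lung: the adult globin chains Hba-a1, Hba-a2, Hbb-bs and Hbb-bt, the haem synthesis enzyme Alas2, the membrane proteins Slc4a1 and Epb42, and the nuclear protein Hemgn. They were chosen by symbol from a list of 9, of which 8 had a row among the 29753 gene rows used, and the remaining symbol is not analysed here. Lungs of balb/c mice were sequenced at D14 (3 libraries) and at D0 (3 libraries). The days are counted from the orthotopic implantation of K7M2, an osteosarcoma line of mouse origin known for its lung metastases. All groups thus share the strain and the tissue. No D14 lungs without implanted cells were analysed here, so tumour, procedure, age and collection day cannot be told apart. Whether each library came from 1 mouse is not given in the sources used here, so that a p-value covers the variation among these libraries, which may be technical. The age and sex of the mice and any perfusion of the lungs are likewise not given in the sources used here. The extraction text speaks of bone marrow-derived macrophages, while the other labels give lungs.

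Haemoglobin carries oxygen as a tetramer of alpha and beta globin chains, each holding a haem group, and adult mice make both chains from duplicated genes. Developing red cells build haem from a first step catalysed by Alas2, assemble a membrane skeleton of spectrin, ankyrin, band 3 and protein 4.2, and lose their nucleus. Reticulocytes, the youngest red cells in blood, still hold RNA of these genes, so lung tissue that contains blood yields their reads. In rodents and humans, alveolar type II cells have also been described to make globin RNA. In bulk tissue, fewer cells of a type and less RNA per cell cannot be told apart.

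Within each globin pair the copies are nearly the same in sequence, which bears on every count given for a single copy. The coding sequences of Hba-a1 and Hba-a2 (429 bases each, in GENCODE transcripts on GRCm38) differed at 1 position, C381T, counted from 1 at the first base of the start codon with the Hba-a1 base first. Those of Hbb-bs and Hbb-bt (444 bases each) also differed at 1 position, C417T, with the Hbb-bs base first. The windows around these positions are shown because a read inside the coding sequence can be told apart only where it covers the base in capitals.
Hba-a1, coding bases 351 to 410, chr11:32284313-32284372, plus strand, GRCm38: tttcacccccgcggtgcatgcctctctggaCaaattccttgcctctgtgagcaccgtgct
Hba-a2, coding bases 351 to 410, chr11:32297130-32297189, plus strand, GRCm38: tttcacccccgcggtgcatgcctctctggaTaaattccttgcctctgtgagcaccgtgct
Hbb-bs, coding bases 387 to 444, chr7:103826665-103826722, minus strand, GRCm38: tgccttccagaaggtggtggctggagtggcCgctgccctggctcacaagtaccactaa
Hbb-bt, coding bases 387 to 444, chr7:103812656-103812713, minus strand, GRCm38: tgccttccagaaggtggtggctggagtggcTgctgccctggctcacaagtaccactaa
GRCm38 comes from the strain C57BL/6J, which carries the Hbb-bs and Hbb-bt pair, whereas BALB/c mice are known to carry another beta globin haplotype with the genes Hbb-b1 and Hbb-b2. Counts under Hbb-bs and Hbb-bt are therefore of reads assigned to a reference that is not the strain's own, and the split of reads within each pair is uncertain. The sum over a pair does not depend on that split.

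Red cell promoters are known for GATA sites bound by Gata1, for CACCC boxes bound by Klf1 and for the CCAAT box, and the 250 bases before the RefSeq start (GRCm38.p6) are printed for 3 globin genes and Alas2, whose levels followed each other over the libraries described below. Capitals mark matches on either strand to GATAA or GATAG preceded by A or T (called GATA), to CACCC and to CCAAT, and no matches of different motifs overlapped.
Hba-a1, chr11:32283422-32283671, plus strand: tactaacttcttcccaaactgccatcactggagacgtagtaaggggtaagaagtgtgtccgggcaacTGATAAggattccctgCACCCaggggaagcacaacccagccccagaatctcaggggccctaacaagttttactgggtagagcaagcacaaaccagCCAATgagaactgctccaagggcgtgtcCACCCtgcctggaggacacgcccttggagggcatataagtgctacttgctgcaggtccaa
Hbb-bs, chr7:103827929-103828178, minus strand: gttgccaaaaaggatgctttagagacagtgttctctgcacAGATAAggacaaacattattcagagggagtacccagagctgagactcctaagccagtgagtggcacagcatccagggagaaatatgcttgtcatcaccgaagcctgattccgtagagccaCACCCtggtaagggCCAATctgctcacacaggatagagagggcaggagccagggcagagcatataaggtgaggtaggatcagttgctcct
Hbb-bt, chr7:103813924-103814173, minus strand: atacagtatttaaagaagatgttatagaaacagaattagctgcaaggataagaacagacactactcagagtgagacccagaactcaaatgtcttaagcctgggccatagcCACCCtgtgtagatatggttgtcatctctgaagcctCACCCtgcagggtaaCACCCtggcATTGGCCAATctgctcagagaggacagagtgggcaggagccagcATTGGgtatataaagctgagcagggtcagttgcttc
Alas2, chrX:150547167-150547416, plus strand: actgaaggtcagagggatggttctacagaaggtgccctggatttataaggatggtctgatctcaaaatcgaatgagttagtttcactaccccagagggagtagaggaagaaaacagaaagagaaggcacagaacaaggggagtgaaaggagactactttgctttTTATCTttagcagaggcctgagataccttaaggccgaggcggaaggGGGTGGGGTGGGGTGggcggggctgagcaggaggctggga
Hba-a1, Hbb-bs and Alas2 held 1 GATA match each and Hbb-bt none in this window, where 26.5% of all 32851 RefSeq windows held at least 1. CACCC matches numbered 2 in Hba-a1, 1 in Hbb-bs, 3 in Hbb-bt and 3 in Alas2, against at least 1 in 52.0% of windows. CCAAT matches numbered 1, 1, 3 and 0 in the same order, against at least 1 in 33.8% of windows. The windows of Hba-a1 and Hba-a2, 300 bases each with the first 50 bases after the start, shared a run of 297 bases, so the promoters of the alpha globin pair cannot be compared by sequence here. These matches are descriptions of letters and not of binding. Of the 8 genes, 7 had a RefSeq window, and Slc4a1 had none. Epb42 and Hemgn, whose windows are not printed, held 1 GATA match each, 0 CACCC matches and 0 CCAAT matches.

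The D14 libraries held 16171595 to 17385006 counts and the D0 libraries 14878101 to 16001097. Lung markers were abundant throughout, with Sftpc, surfactant protein C, at 12874 to 18299.8 CPM (counts scaled to a common library total and corrected for library composition) in D14 libraries and 12446 to 34630.1 CPM in D0 libraries. D0 replicate 3 stood apart from the other libraries on the first principal component, at 79.4 against −39.8 to 15.4. It also had more of its counts in genes with short transcripts: among genes outside the lists used here, those with a longest transcript of 0.4 to 0.8 kb had a median log2 CPM 0.53 above the mean of the 6 libraries in D0 replicate 3, and those of 7 kb and over 0.50 below it. In the other libraries these medians lay between −0.24 and 0.02 for the short class and between 0.01 and 0.24 for the long class. The globin transcripts belong to the short class, at 0.554 to 0.703 kb, Alas2 has 2.037 kb, Epb42 4.115 kb and Slc4a1 4.545 kb. The part of transcript length and of D0 replicate 3 in the results was not tested. Values without that library are given beside the fold changes of the tested genes among the 8 and the list medians that it moves most.

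**Figure D1:**
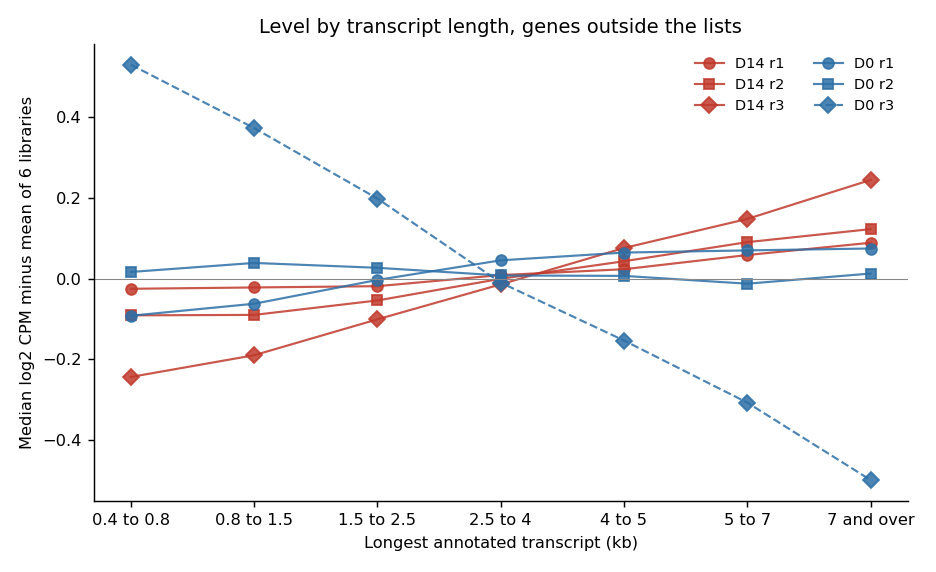
Median over genes outside the lists of log2 CPM minus the mean of the 6 libraries, by class of longest annotated transcript in kb, with 1 line per library (r1 to r3 are replicates 1 to 3; D14 red, D0 blue). D0 replicate 3, the dashed line, runs from 0.53 in the shortest class to −0.50 in the longest, while the other libraries stay between −0.24 and 0.24.

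Globin RNA differed more among the D0 libraries than between the means of the 2 days. The 4 adult globin genes together took 1.62%, 2.77% and 2.69% of all counts in the D14 libraries, against 0.985%, 1.94% and 4.98% in the D0 libraries. The highest and the lowest share both belonged to D0 libraries, and the D14 range lay inside the D0 range. The means were 2.36% ± 0.643 at D14 and 2.64% ± 2.09 at D0 (SD, n = 3 each), a difference of −0.28 percentage points (two-sided exact permutation test, p = 0.9; 3 against 3 libraries cannot give a p below 0.1). Without D0 replicate 3 the D0 mean was 1.46% and the difference 0.893 percentage points (exact permutation p = 0.3). The exact binomial intervals of these shares, 4.974% to 4.996% in D0 replicate 3 for example, cover counting error only and were narrow against the gaps between libraries.

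**Figure D2:**
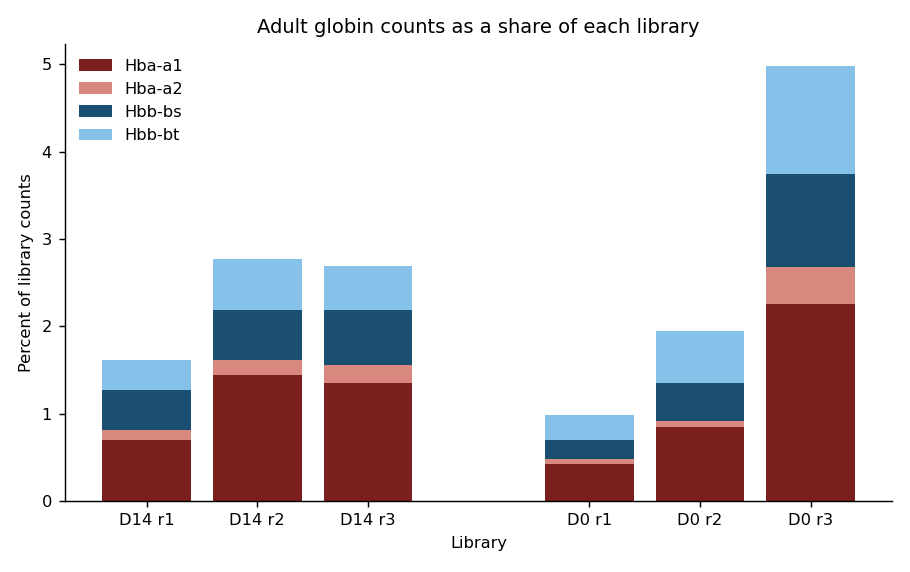
Percent of each library's counts assigned to the 4 adult globin genes, stacked by gene, for the 3 D14 and the 3 D0 libraries (r1 to r3 are replicates 1 to 3). D0 replicate 3 reaches 4.98% and D0 replicate 1 has 0.985%, with all D14 libraries between them.

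Hba-a1 (ENSMUSG00000069919.7, chromosome 11 from 32283511 to 32284465) encodes alpha globin and was the most abundant of the 8 genes. It had 6969, 14865 and 14005 CPM in the D14 libraries, against 3963.5, 8137 and 23617 CPM in the D0 libraries. The D14 values lay inside the D0 range, and the log2 fold change of D14 over D0 was 0.00 (SE 0.63, 95% interval −1.45 to 1.46; adjusted p = 0.997, edgeR quasi-likelihood test with Benjamini-Hochberg adjustment over all genes). Without D0 replicate 3 it was 0.98 (SE 0.44; edgeR adjusted p = 0.458).

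Hba-a2 (ENSMUSG00000069917.7, chromosome 11 from 32296489 to 32297298), the second alpha globin gene, had 1205, 1794 and 2167 CPM in the D14 libraries, against 521, 652 and 4329 CPM in the D0 libraries. All D14 values stood above D0 replicates 1 and 2 and below D0 replicate 3. The log2 fold change was −0.09 (SE 0.77, 95% interval −1.89 to 1.71; edgeR adjusted p = 0.962), and 1.56 without D0 replicate 3 (SE 0.27; edgeR adjusted p = 0.169). Hba-a2 made up 14.7%, 10.8% and 13.4% of the alpha globin counts at D14 and 11.6%, 7.42% and 15.5% at D0, ranges that overlap.

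Hbb-bs (ENSMUSG00000052305.6, chromosome 7 from 103826534 to 103828096), a beta globin gene, had 4633, 5942 and 6473 CPM in the D14 libraries, against 2028, 4278 and 11174 CPM in the D0 libraries. Its D14 values also lay above D0 replicates 1 and 2 and below D0 replicate 3. The log2 fold change was −0.04 (SE 0.55, 95% interval −1.32 to 1.25; edgeR adjusted p = 0.978), and 0.85 without D0 replicate 3 (SE 0.34; edgeR adjusted p = 0.416).

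Hbb-bt (ENSMUSG00000073940.3, chromosome 7 from 103812524 to 103813996), its neighbour at the same locus, had 3470, 5951 and 5250 CPM in the D14 libraries, against 2652, 5701 and 12964 CPM in the D0 libraries. Here D0 replicate 2 stood among the D14 values, unlike for Hba-a2 and Hbb-bs. Its log2 fold change was −0.54 (SE 0.53, 95% interval −1.78 to 0.70; edgeR adjusted p = 0.661), and 0.23 without D0 replicate 3 (SE 0.38; edgeR adjusted p = 0.831).

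The beta globin pair divided its counts differently in the libraries of the 2 days. Hbb-bs took 57.2%, 49.96% and 55.2% of the beta globin counts at D14, against 43.3%, 42.9% and 46.3% at D0. The D14 and D0 ranges did not overlap, and the mean difference of 9.95 percentage points had the smallest exact permutation p that 3 against 3 libraries allow, 0.1 (0.25 adjusted over the 10 within-library ratios computed, which were chosen after values had been seen). Leaving out any single library gave differences of 8.43 to 12.03 percentage points. As reads of another haplotype were assigned to this pair by the authors' counting, the ratio cannot be read as the ratio of 2 genes of these mice. Alpha globin made up 50.2%, 58.3% and 58.0% of the adult globin counts at D14, against 48.9%, 46.8% and 53.7% at D0, ranges that overlap.

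Alas2 (ENSMUSG00000025270.13, chromosome X from 150547375 to 150570638) encodes the erythroid form of aminolevulinate synthase. It had 157, 336 and 335 CPM in the D14 libraries, against 72.3, 150.2 and 378 CPM in the D0 libraries. As for the globins, D0 replicate 3 was highest and D0 replicate 1 lowest. The log2 fold change was 0.46 (SE 0.58, 95% interval −0.88 to 1.81; edgeR adjusted p = 0.731), and 1.31 without D0 replicate 3 (SE 0.49; edgeR adjusted p = 0.416) but 0.07 without D0 replicate 1 (SE 0.49; edgeR adjusted p = 0.952). Apex2 overlaps Alas2 on the opposite strand and had 60 to 136 counts per library, against 1243 to 5382 for Alas2.

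Set against the globin counts of the same library, Alas2 was higher in all D14 libraries than in any D0 library. It had 962, 1176 and 1202 counts per 100000 adult globin counts in the D14 libraries, against 789, 800.3 and 726 in the D0 libraries. The total globin shares of the same libraries overlapped. The means were 1113 ± 132 at D14 and 772 ± 40.2 at D0 (SD, n = 3 each), a difference of 342 (two-sided exact permutation p = 0.1, the smallest possible; 0.25 adjusted over the 10 ratios), which stayed between 298 and 418 with any single library left out. In an edgeR fit with the log2 of the summed globin CPM as a covariate, added after the data were seen, the log2 fold change of Alas2 was 0.53 (SE 0.14, 95% interval 0.19 to 0.87; unadjusted p = 0.00714, adjusted p = 0.147), so Alas2 did not pass there. Genes with transcripts of 1.5 to 2.5 kb, the length of Alas2, had a median log2 fold change of −0.14 and those of 0.4 to 0.8 kb, the length of the globins, −0.29. The part of this difference in the ratio was not tested.

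Slc4a1 (ENSMUSG00000006574.15, chromosome 11 from 102348824 to 102366203) encodes band 3, the anion exchanger that anchors the membrane skeleton. It had 89, 323 and 268 counts in the D14 libraries, against 79, 46 and 106 in the D0 libraries, or 5.16, 20.6 and 17.2 CPM against 4.59, 2.94 and 7.44 CPM. D14 replicates 2 and 3 stood above all D0 libraries, while D14 replicate 1 lay within the D0 range. The means were 14.3 ± 8.11 CPM at D14 and 4.99 ± 2.28 CPM at D0 (SD, n = 3 each). Its log2 fold change was 1.52 (SE 0.54, 95% interval 0.26 to 2.78), which did not pass over all genes (edgeR unadjusted p = 0.0243, adjusted p = 0.364). Without D0 replicate 3 it was 1.92 (SE 0.65; edgeR adjusted p = 0.395), and D0 replicate 3, the library richest in globin, had 14.3 Slc4a1 counts per 100000 globin counts, against 31.7 to 72.1 at D14 and 15.7 and 50.1 in the other D0 libraries.

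Epb42 (ENSMUSG00000023216.13, chromosome 2 from 121017891 to 121037072) encodes protein 4.2, which binds band 3 to ankyrin. It had 11, 25 and 21 counts in the D14 libraries, against 5, 3 and 0 in the D0 libraries, so that its level is known only to counting error. In D0 replicate 3 a count of 0 allows up to 0.211 CPM, against 0.637, 1.59 and 1.35 CPM at D14. The groups did not overlap. The log2 fold change of 2.77 (SE 0.76, 95% interval 1.01 to 4.53) did not pass over all genes (edgeR unadjusted p = 0.00693, adjusted p = 0.347). Without D0 replicate 3 it was 2.26 (SE 0.63; edgeR adjusted p = 0.342). Epb42 passed the filter on low counts only through its D14 libraries, so its presence among the tested genes depended on its being higher there. Genes of 4 to 5 kb, the length of Epb42 and Slc4a1, had a median log2 fold change of 0.05.

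Hemgn (ENSMUSG00000028332.13, chromosome 4 from 46393989 to 46413506), hemogen, a nuclear protein of blood precursors, had 0, 18 and 8 counts in the D14 libraries, against 13, 1 and 8 in the D0 libraries. It did not pass the filter on low counts and was not tested. In D14 replicate 1 the count of 0 allows up to 0.174 CPM.

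In all, 7 of the 8 genes were tested and 0 passed an adjusted p of 0.05 with edgeR, where 0.0339% of all 17686 tested genes passed, 0.017% higher at D14 and 0.017% lower. D14 stood above D0 in the fit for 4 of the 7 (log2 fold change above 0), and for 46.9% of all tested genes. With DESeq2 and with limma-voom 0 passed as well, with 2 and 1 genes at an unadjusted p under 0.05. Those were Slc4a1 and Epb42 with DESeq2 and Epb42 alone with limma-voom, where Slc4a1 had an unadjusted p of 0.0595. Of all tested genes 6.62% stood at an unadjusted p under 0.05 on the higher side and 6.99% on the lower side with DESeq2. With limma-voom these shares were 5.86% and 6.55%. In the edgeR fit, at an unadjusted p under 0.05 stood Slc4a1 and Epb42, both higher at D14, where 5.48% of tested genes stood in that direction. As Epb42 was tested in each of these fits only because of its D14 counts, the edgeR count without it was 1 of 6. Without it DESeq2 left Slc4a1 and limma-voom left no gene. Without D0 replicate 3, 5 of 8 tested genes reached an unadjusted p under 0.05 and 0 an adjusted one. All 5 (Hba-a2, Hbb-bs, Alas2, Slc4a1 and Epb42) were higher at D14, with the same limit on Epb42. In that fit 5.60% of all tested genes stood at an unadjusted p under 0.05 on the higher side and 5.98% on the lower side. Epb42 was the only one of the 7 whose day ranges did not overlap, against 21.6% of all tested genes in either direction, and without it the count was 0 of 6.

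**Figure D3:**
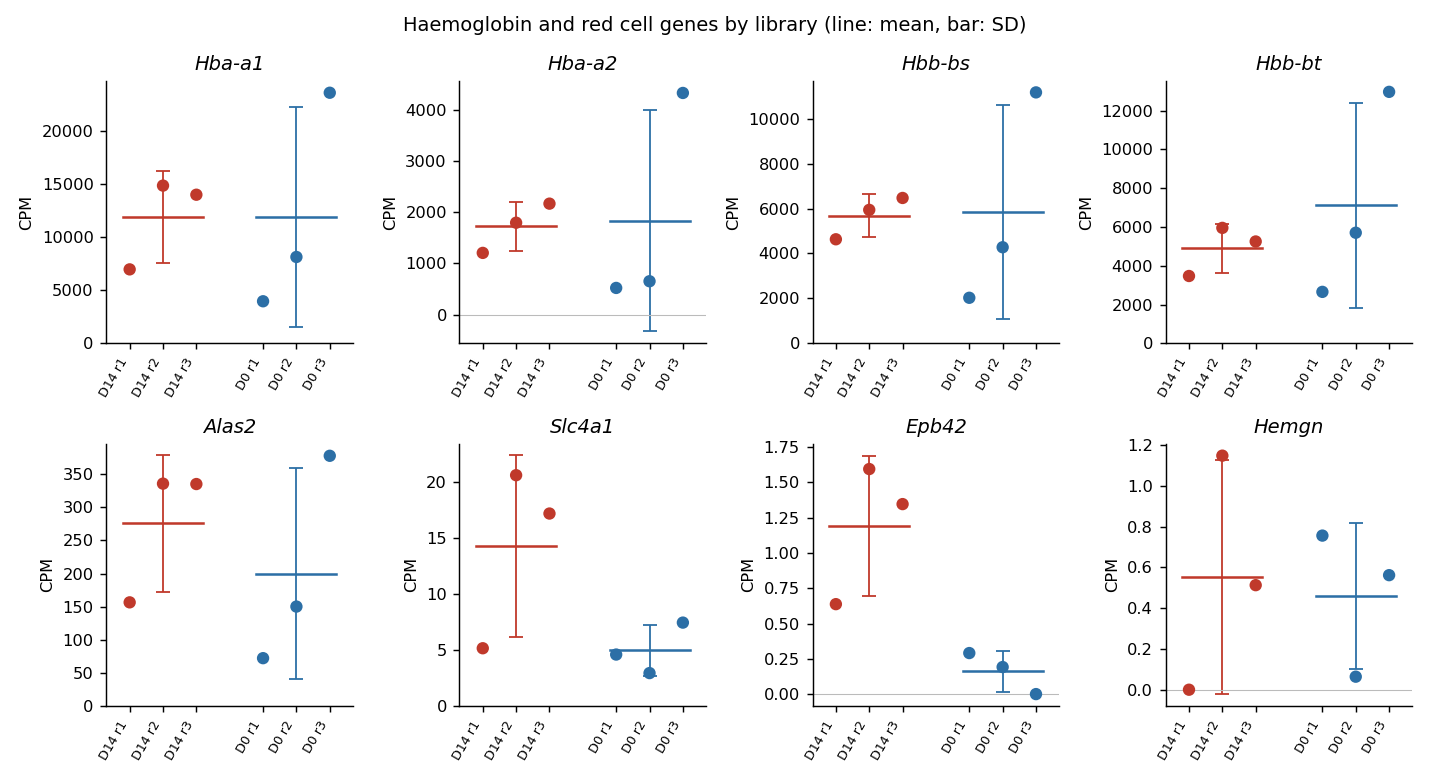
CPM of each gene in the 3 D14 (red) and 3 D0 (blue) libraries, with 1 point per library (r1 to r3 are replicates 1 to 3), a line at the group mean and a bar of 1 SD, on linear axes. In the globin and Alas2 panels D0 replicate 3 is highest, at 378 CPM for Alas2, whereas the Epb42 panel has D0 replicate 3 at 0 and all D14 libraries above all D0 libraries.

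Per kb of longest transcript, the order of mean levels over the 6 libraries was Hba-a1, Hbb-bs, Hbb-bt, Hba-a2, Alas2, Slc4a1, Hemgn and Epb42. Hba-a1 stood at 17091 ± 6197 CPM per kb at D14 and 17033 ± 14813 at D0, and Hbb-bs at 9049 ± 1508 and 9278 ± 7589 (SD, n = 3 each). Hbb-bs and Hbb-bt, at 6957 ± 1819 at D14 and 10108 ± 7535 at D0, had overlapping spreads over the libraries. Within libraries and per kb, Hbb-bs stood above Hbb-bt in all 3 D14 libraries and below it in all 3 D0 libraries. This order depends on the annotated lengths, as D14 replicate 2 had 93183 counts for Hbb-bs and 93322 for Hbb-bt. Alas2 followed far below the globins, at 135 ± 50.7 CPM per kb at D14 and 98.3 ± 78.0 at D0. Slc4a1 had 3.15 ± 1.78 CPM per kb at D14 and 1.10 ± 0.501 at D0. Hemgn and Epb42, which reached at most 0.486 and 0.387 CPM per kb in any library, did not differ beyond their spread.

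Bpgm, the enzyme that makes 2,3-bisphosphoglycerate, is known as an abundant RNA of late red cells, and its order over the libraries was close to that of the globins. It had 72.7, 121.3 and 126.9 CPM in the D14 libraries, against 53.6, 70.1 and 126.4 CPM in the D0 libraries, with D14 replicate 3 and D0 replicate 3 highest and D0 replicate 1 lowest. Genes were ranked by Pearson r of log2 CPM with the log2 of the summed globins over the 6 libraries, a description only. Of 16604 genes with a mean of at least 1 CPM, Alas2 stood 95th (r = 0.944), Bpgm 198th (r = 0.913) and Slc4a1 3376th (r = 0.502). Bpgm had the highest r among the ranked red cell enzyme and late maturation genes. Mkrn1 stood at 0.902 and Trim10 at 0.651, but Cat at −0.071, Xpo7 at −0.218 and Ube2o lowest at −0.410. Ranked membrane and skeleton genes ran from 0.540 (Gypc) to −0.653 (Xk), with Sptb at 0.163. The closest genes outside the 8 were Ctsb (r = 0.997), the lysosomal protease cathepsin B, Gm6166 (0.997), Sla (0.987), Ifi202b (0.987), Gm10250 (0.987), Txndc12 (0.986), Calcb (0.986) and Pex3 (0.986). With D0 replicate 3 at one end and D0 replicate 1 at the other, these values also carry whatever else sets those libraries apart.

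The other haem synthesis genes stood on both sides of 0. Of the 12 genes of the list, Alas2 included, all were tested and 0 passed over all genes with edgeR. At an unadjusted p under 0.05 stood 1 in each direction, as did 5.48% of all tested genes on the higher side and 7.09% on the lower side. The median log2 fold change was −0.19, against −0.03 over all tested genes. Alas1, the aminolevulinate synthase of tissues other than red cells, had 248 ± 28.9 CPM at D14 and 154 ± 19.0 CPM at D0 (SD, n = 3 each), with all D14 libraries above all D0 libraries (log2 fold change 0.69, SE 0.17; adjusted p = 0.347 with edgeR and 0.0239 with DESeq2). Alad, the second enzyme of the pathway, stood at −0.53 (SE 0.26), and Ppox, the oxidase before the last step, at −0.47 (SE 0.16). Fech, ferrochelatase, which inserts the iron, stood at 0.20 (SE 0.18).

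Among membrane and skeleton genes 3 stood at an unadjusted p under 0.05, all higher at D14 (Slc4a1, Epb42 and Sptb), where 5.48% of all tested genes stood in that direction. Of 19 listed genes 14 were tested, 0 passed over all genes with edgeR, and 0 stood at an unadjusted p under 0.05 on the lower side. The ranges of 4 did not overlap (Epb42, Sptb, Kel and Aqp1), all higher at D14, where 10.9% of all tested genes did so. Epb42 and Kel, a blood group antigen with 0 to 19 counts per library, passed the filter only through D14, and without that pair 2 of 12 tested genes stood at an unadjusted p under 0.05 and 2 of 12 did not overlap. The list's median log2 fold change was 0.30, 0.29 without that pair, 0.56 without D14 replicate 1 and 0.54 without D0 replicate 1. Sptb, the beta spectrin of the red cell, had 6.02, 8.86 and 7.76 CPM in the D14 libraries, against 4.19, 4.34 and 3.93 CPM in the D0 libraries. Its D14 libraries all stood above its D0 libraries, and on the log2 scale it was 0.86 higher (SE 0.23; edgeR unadjusted p = 0.00637, adjusted p = 0.347).

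Set against globin, Sptb overlapped between the days. It had 37.0, 31.0 and 27.8 counts per 100000 globin counts at D14, against 45.7, 23.1 and 7.55 at D0, and its ratio turned to −2.46 for D14 minus D0 without D0 replicate 3. The Sptb transcript is long, at 10.4 kb, and genes of 7 kb and over had a median log2 fold change of 0.26. The most abundant genes of the list are also expressed outside red cells. Aqp1, a water channel that lung endothelium makes too, stood at 0.31 (SE 0.17), Epb41 at 0.57 (SE 0.43) and Tmod1 at −0.15 (SE 0.20).

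**Figure D4:**
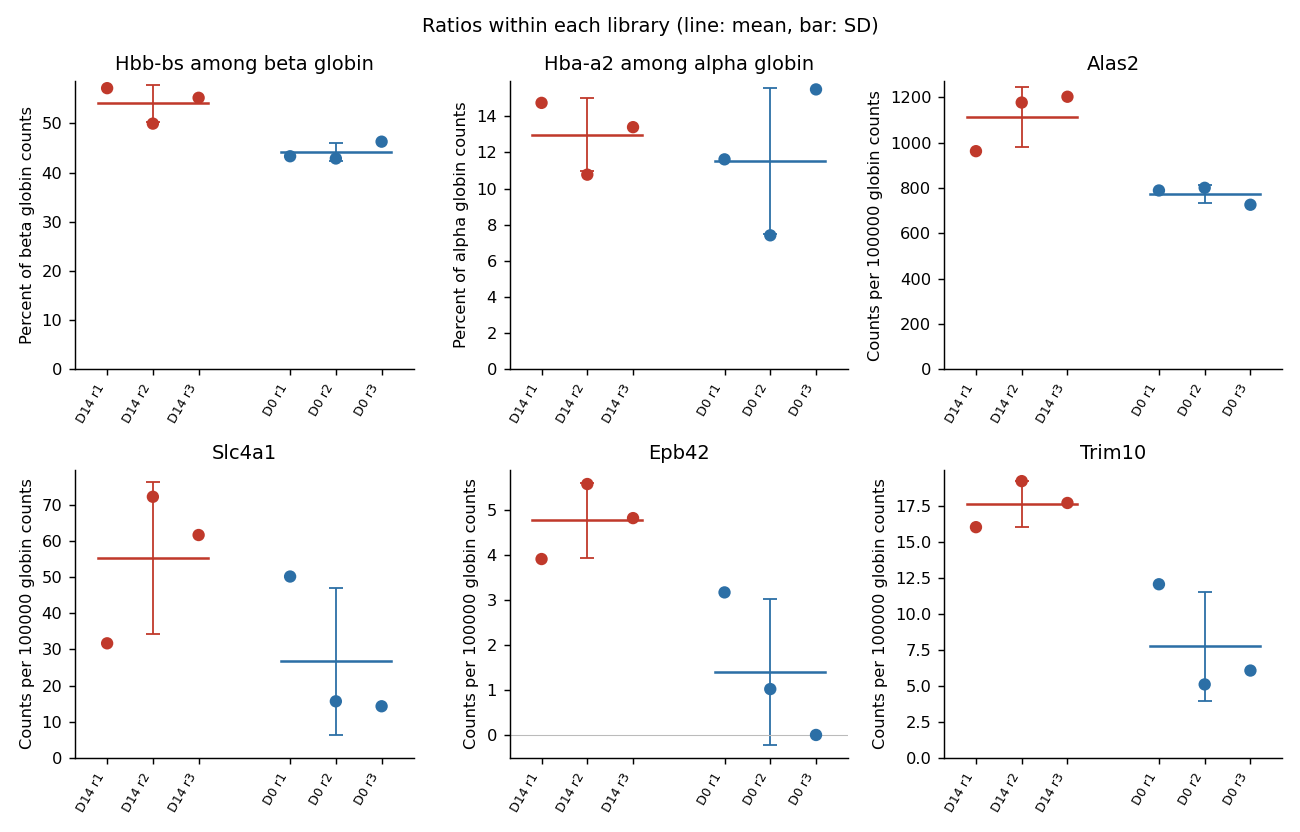
Ratios within each library for the 3 D14 (red) and 3 D0 (blue) libraries: the Hbb-bs percent of beta globin counts, the Hba-a2 percent of alpha globin counts, and Alas2, Slc4a1, Epb42 and Trim10 (a ubiquitin ligase of late red cells) counts per 100000 adult globin counts, with 1 point per library (r1 to r3 are replicates 1 to 3), a line at the mean and a bar of 1 SD. The D14 and D0 points do not overlap for Hbb-bs, Alas2, Epb42 and Trim10, and do for Hba-a2 and Slc4a1. The other ratios of the 10 computed, of alpha globin, Sptb and Bpgm and not drawn, overlap as well. The ratios were chosen after values had been seen, and Epb42 passed the filter on low counts only through D14. How many of all genes would not overlap as a ratio to globin was not tested.

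Among transcription factors of the erythroid lineage and the erythropoietin receptor, the genes at an unadjusted p under 0.05 were lower at D14. Of 13 listed genes 10 were tested, 0 passed over all genes with edgeR, 0 stood at an unadjusted p under 0.05 on the higher side and 3 on the lower side, where 7.09% of all tested genes stood, with a median log2 fold change of −0.26. With 1 library left out that median ran from −0.53 (D14 replicate 2) to −0.08 (D14 replicate 3), and was −0.11 without D0 replicate 1. Lyl1, a basic helix-loop-helix factor also of endothelium, had 4.59 ± 2.79 CPM at D14 and 13.7 ± 1.43 CPM at D0 (SD, n = 3 each; log2 fold change −1.57, SE 0.41; adjusted p = 0.347 with edgeR and 0.0192 with DESeq2). Epor, the erythropoietin receptor, stood at −0.90 (SE 0.27) and Ldb1, a cofactor of many tissues, at −0.63 (SE 0.22). The factors most restricted to red cell and megakaryocyte precursors were near the detection limit, with Gata1 at 2 to 23 counts per library (log2 fold change 0.61, SE 0.70) and Klf1, not tested, at 0 to 9. Lmo2 and Zfpm1, both also expressed outside the lineage, stood at −0.38 (SE 0.25) and −0.08 (SE 0.42).

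Enzymes and late maturation genes of the red cell showed no shared direction. Of the 19 with a row 16 were tested and 0 passed over all genes with edgeR, with a median log2 fold change of 0.13. At an unadjusted p under 0.05 stood 3 on the higher side and 1 on the lower side, against 5.48% and 7.09% of all tested genes. Trim10, a ubiquitin ligase of late red cell maturation, had 45, 86 and 77 counts in the D14 libraries, against 19, 15 and 45 in the D0 libraries (log2 fold change 1.32, SE 0.53; edgeR adjusted p = 0.380), and 2.06 without D0 replicate 3 (SE 0.43; edgeR adjusted p = 0.268). Per 100000 globin counts Trim10 had 16.0, 19.2 and 17.7 at D14, against 12.1, 5.11 and 6.07 at D0, without overlap of the days (two-sided exact permutation p = 0.1, 0.25 adjusted over the 10 ratios). The most abundant genes, Gpx1, Cat and Bnip3l, stood at −0.46 (SE 0.30), −0.05 (SE 0.14) and −0.07 (SE 0.17). The count on the higher side was 0 without D14 replicate 2 or D14 replicate 3, 1 without D0 replicate 1 or D0 replicate 2 and 4 without D0 replicate 3. For the membrane list it was 4 without D14 replicate 1 or D0 replicate 3 and 2 without any other single library. Epb42, which passed the filter of the main fit only through D14, was in each of these membrane counts. The share of all tested genes on the higher side was 4.78%, 2.73% and 2.86% without D14 replicates 1, 2 and 3. It was 9.17%, 4.02% and 5.60% without D0 replicates 1, 2 and 3.

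**Figure D5:**
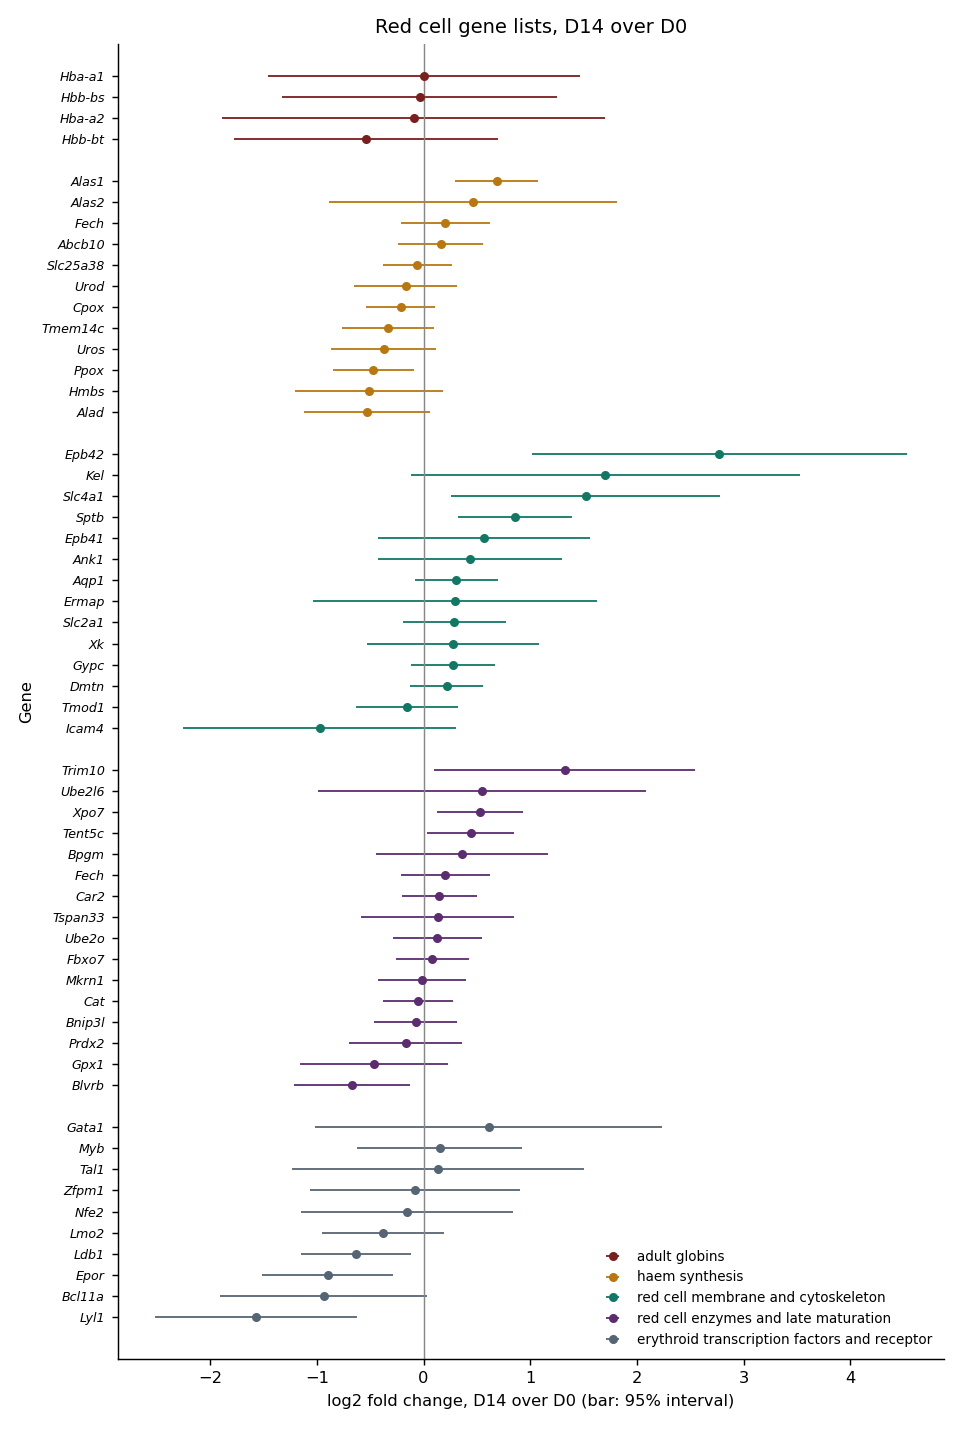
Log2 fold change of D14 over D0 with its 95% interval from the edgeR fit, for the tested genes of 5 lists, sorted within each list. The intervals of the globins all span 0. With their intervals, 3 membrane genes (Epb42, Slc4a1 and Sptb) lie above 0, as do Alas1, Trim10, Xpo7 and Tent5c of other lists. Lyl1, Epor and Ldb1 lie below 0, as do Ppox and Blvrb.

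Genes that take up and degrade haemoglobin and haem had a median log2 fold change of −0.24 over 11 tested genes, and of 0.11 without D0 replicate 3, so its sign rested on that library. With edgeR 0 passed, and 0 stood at an unadjusted p under 0.05 on the higher side and 2 on the lower side (1 and 0 without D0 replicate 3). Of all tested genes 5.48% and 7.09% stood on these sides, and 5.60% and 5.98% without D0 replicate 3. The days did not overlap for 1 gene on the higher side, Lrp1, and for 2 on the lower side, Slc40a1 and Slc48a1, where 10.9% and 10.7% of all tested genes did so. Hmox1, haem oxygenase, had 39.0, 42.5 and 32.4 CPM in the D14 libraries, against 31.4, 39.0 and 233 CPM in the D0 libraries, so that D0 replicate 3, highest in globin, was also highest in Hmox1. Slc40a1, the iron exporter ferroportin, stood at −0.66 (SE 0.24). Hp, haptoglobin, which binds free haemoglobin, stood at 0.16 (SE 0.24), Lrp1 at 0.35 (SE 0.17) and Slc48a1, a haem transporter, at −0.24 (SE 0.15).

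Markers of other cell types were ordered over the libraries in several ways, and 0 of their genes passed over all genes with edgeR. The summed level of 14 platelet markers was 120.0 to 146 CPM at D14 and 94.7 to 133 CPM at D0, and D0 replicate 3, highest in globin, had 102 CPM. Their median log2 fold change was 0.38, with Ppbp at 0.76 (SE 0.27) and Itgb3 at 0.38 (SE 0.17), both without overlap of the days, as 10.9% of all tested genes on the higher side. That median was 0.76 without D0 replicate 1, with 8 of 14 genes at an unadjusted p under 0.05 in place of 1, and 0.18 without D0 replicate 3. All of these stood on the higher side, which held 9.17% of all tested genes without D0 replicate 1 and 5.48% with every library. Neutrophil markers summed to 229 to 387 CPM at D14 and 247 to 605 CPM at D0, where Lcn2 alone made up 446 CPM of D0 replicate 3. Alveolar macrophage markers summed to 738 to 831 CPM at D14 and 584 to 1886 CPM at D0, with the highest value again in D0 replicate 3. Their median log2 fold change was −0.79, and −0.16 without D0 replicate 3. Alveolar type II markers summed to 22351 to 29525 CPM at D14 and 22373 to 49255 CPM at D0, with a median log2 fold change of −0.25, and −0.03 without D0 replicate 3. Endothelial markers went the other way, with 6066 to 6566 CPM at D14 and 2883 to 5504 CPM at D0 and the lowest value in D0 replicate 3. All 10 stood higher at D14, with a median log2 fold change of 0.61, and 0.39 without D0 replicate 3. At an unadjusted p under 0.05 stood 5 of them, where 5.48% of all tested genes stood in that direction. That count was 1 without D14 replicate 2 or D0 replicate 2, 2 without D14 replicate 3 or without scaling factors and 10 without D0 replicate 1. The share of all tested genes on that side was 2.73%, 4.02%, 2.86%, 2.96% and 9.17% in these fits, in the same order. Cldn5, a claudin of endothelial tight junctions, had 1086 ± 148 CPM at D14 and 665 ± 64.6 CPM at D0 (SD, n = 3 each; log2 fold change 0.71, SE 0.18; adjusted p = 0.347 with edgeR and 0.00962 with DESeq2). None of the markers in these 5 lists had a count of 0 in any library, and the part of these cell types in the globin levels was not tested.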

How the data were processed

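Libraries of balb/c mouse lung were sequenced in 2 groups of 3. The values are estimated counts per gene deposited by the authors in 1 table for the whole series. The submitters' processing notes name StringTie 1.3.4b, HISAT2 2.1.0, CASAVA 1.8, edgeR and the build GRCm38. The tool that made the counts, its annotation and any use of strand were not given in the sources used here. Without strand, reads of Alas2 and of Apex2 on the opposite strand cannot be told apart.

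Of 29757 lines, 4 were left out (2 empty, 2 displaced with values that were not whole), and 50 lines repeat a symbol. Counts were rounded and tested with edgeR 4.0.16 (R 4.3.3; TMM factors, filterByExpr, robust quasi-likelihood F test, Benjamini-Hochberg adjustment over 17686 genes, threshold 0.05). CPM values use TMM-scaled library sizes, a prior count of 2 enters log2 CPM, the SE is the log2 fold change divided by the root of F, and a count of 0 was read as up to 3 counts. Shares and ratios were compared with exact permutation tests. DESeq2 1.42.0 and limma-voom (limma 3.58.1) were alternatives, with other scaling, filters, a replicate block and each library left out. Positions are from GENCODE on GRCm38, which held 98.1% of the tested symbols, and promoters from RefSeq. On simulated data with 200 changed genes, run 3 times over 17399 genes, edgeR recovered 19.8% of genes with a log2 change of 1 and 80.3% of those with 2, with 24 false among 319 calls.

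The genes and lists were chosen with earlier results of these data known. Named are the 8 genes, the 3 most abundant tested genes of a list or some of them, any that passed with edgeR, and the 8 genes most like the summed globins. Bpgm, Sptb, Kel, Trim10, Hmox1, Lyl1, Epor, Cldn5, Gata1, Klf1 and other listed genes named for their values, as well as the 10 ratios and the length classes, were chosen after the values were seen. Some genes of the lists are not reported here, and the counts of a list do not include them.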

Additional observations from a re-analysis of the deposited data

How the results depend on the processing

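In each of the 17 alternatives 0 of the tested genes among the 8 passed an adjusted p of 0.05 (7 or 8 tested in most, 6 with the filter of 1 CPM and 3 with the globin covariate, and Epb42 without an adjusted p from DESeq2), with a smallest adjusted p of 0.116 (DESeq2, Slc4a1). Alas2, Slc4a1, Epb42, Sptb and Trim10 stood higher at D14 under every alternative run for them, with Alas2 lowest at 0.07 without D0 replicate 1. Sptb and Trim10 were chosen after the values were seen, and Epb42 passed the filter of the main fit only through D14. These signs are therefore a description only. Over all genes, the edgeR count of 6 (3 higher, 3 lower) became 274 with DESeq2 (168 higher, 106 lower), 26 without the low count filter (22 higher, 4 lower) and 32 with the globin level as a covariate, an alternative added after the data were seen (24 higher, 8 lower). It ran from 0 to 22 with 1 library left out, at 0 without any single D14 library and 22 without D0 replicate 3. The difference in globin share was −0.28 percentage points, and −1.11 to 0.893 with 1 library left out, turning to 0.0904 without D14 replicate 1 and 0.893 without D0 replicate 3. Hba-a1, at 0.00, turned to −0.020 without scaling factors, −0.18 and −0.12 without D14 replicate 2 and 3, and −0.41 and −0.21 without D0 replicate 1 and 2 (range −0.41 to 0.98 with 1 library left out). Hba-a2 turned to 0.55 with limma-voom, 0.12 without D14 replicate 1 and 1.56 without D0 replicate 3 (range −0.53 to 1.56). Hbb-bs turned to 0.28 with limma-voom, 0.10 without D14 replicate 1 and 0.85 without D0 replicate 3 (range −0.44 to 0.85), and Hbb-bt to 0.23 without D0 replicate 3 (range −0.93 to 0.23). Among ratios, the Hba-a2 percent of alpha globin turned to −0.582 without D0 replicate 2 (range −0.582 to 3.46), and Sptb and Bpgm per 100000 globin counts to −2.46 and −37.1 without D0 replicate 3, with highest values of 16.6 and 134 when 1 library was left out. The cause of these turns was not tested. Without scaling factors the median log2 fold change of all genes moved to −0.10 from −0.03.

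The deviations of same-numbered libraries from their group means had correlations of 0.129, −0.0348 and −0.107 over genes. Pairs with different numbers had −0.192 to 0.190. These few correlations cannot show whether a number marks a shared litter or batch, and the globin share was lowest in replicate 1 on both days. A pairing of the libraries was not tested. With the replicate numbers as a block, edgeR called 0 genes, Hba-a2 stood at 0.59, Hbb-bs at 0.30, and the paired globin share difference was −0.28 percentage points (exact permutation p = 1). The SE of Alas2 was 0.31 with the block and 0.58 without it, and that of Hba-a1 0.40 and 0.63.

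Depth limited Epb42, Hemgn, Gata1 and Klf1, all under 30 counts in each library. With 3 libraries a group, intervals of the globins reach beyond a log2 change of 1 in at least 1 direction.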

Other observations

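Genes of iron handling stood on both sides of 0. Of 11 genes for the uptake and storage of iron 10 were tested and 0 passed over all genes with edgeR, with a median log2 fold change of 0.14. Ftl1, the ferritin light chain, which stores iron in most cells, had 416, 577 and 541 CPM in the D14 libraries, against 968, 1007 and 2238 CPM in the D0 libraries, with no overlap between the days. Its log2 fold change of −1.46 (SE 0.35) had an adjusted p of 0.341 with edgeR and 0.00726 with DESeq2, and 0.0368 in the edgeR fit with the globin level as a covariate. Fth1, the ferritin heavy chain, stood at −0.31 (SE 0.21), and Trf, transferrin, at −0.29 (SE 0.30). Ftl1 belongs to a family with many processed copies in the mouse genome, and the authors' counting could split its reads.

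Among embryonic and minor globins, the theta globin gene Hbq1b was tested, with a log2 fold change of 0.69 (SE 0.57) and 1.54 without D0 replicate 3, and Hbq1a did not pass the filter on low counts.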
